A study of Mus musculus with 12 samples.

Results

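The genes described here are 10 genes of lipid handling that are tied to the nuclear receptors PPARG and LXR: *Pparg*, *Nr1h3*, *Lpl*, *Fabp4*, *Fabp5*, *Plin2*, *Abca1*, *Abcg1*, *Apoe* and *Aqp9*. They were picked by symbol from a table of RNA-seq counts that lists 54532 genes, each symbol had a single row, and all 10 were among the 14894 genes with enough reads to be tested. Marrow cells of C57BL/6 wild-type animals gave the RNA after they were cultured with GM-CSF and IL-6, cytokines that drive myeloid differentiation, and harvested on day 5. Of the 12 libraries, 4 were controls that received vehicle (0.1% DMSO), 4 received 10 µM indole-3-propionic acid (IPA), a bacterial metabolite of tryptophan, and 4 received IPA at 50 µM. The paper calls 50 µM supraphysiological and reports a slight loss of cell viability at that dose. For that reason it focused its own RNA-seq analysis on 10 µM. The part of viability in the differences at 50 µM was not tested here. All 3 groups shared the genotype, both cytokines and the day of harvest, and the medium was changed on day 3 according to the sample labels. The labels do not say that the replicates came from separate animals or cultures, so the p-values measure only the spread between these libraries, which may be technical.

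PPARG is a nuclear receptor that binds fatty acids and their derivatives. It pairs with a retinoid X receptor (RXR) on DNA and is needed for the maturation of alveolar macrophages, which GM-CSF drives. LXR alpha, the product of *Nr1h3*, is bound by oxidized cholesterol and switches on genes that move cholesterol out of the cell, among them *Abca1*, *Abcg1* and *Apoe*. The remaining genes act around these receptors, with LPL releasing fatty acids from lipoproteins, FABP4 and FABP5 carrying them inside the cell, PLIN2 coating the droplets in which they are stored, and AQP9 letting glycerol and other small solutes through the membrane.

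At 50 µM IPA, *Lpl* and *Aqp9* were about 1.91 and 2.48 times as high as with vehicle, and *Fabp4* was 2.90 times as high at a low level. In the same cultures *Pparg* stood at 0.624, *Apoe* at 0.386, *Abca1* at 0.712 and *Abcg1* at 0.825 of the vehicle level. Of these 4 calls, that of *Abca1* held in 4 and that of *Abcg1* in 1 of the 8 fits that left out a library. At 10 µM only *Lpl* passed the test, with a level 1.34 times that of vehicle, and it did so in 1 of the 8 fits that left out a library. *Plin2*, *Abca1* and *Abcg1* were each lower at 50 µM than at 10 µM, and their 4 libraries at 10 µM all lay above the 4 with vehicle.

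Library totals ran from 20451312 to 28038612 counted reads. Expression is given as CPM, counts scaled to a common library total, after TMM normalization over the 12 libraries, as mean ± SD of 4 libraries. Groups were compared by edgeR's quasi-likelihood test on the counts of the 8 libraries concerned, p-values underwent Benjamini-Hochberg adjustment for all 14894 tested genes, and a gene passed at an adjusted p under 0.05. Both comparisons with vehicle use the same 4 vehicle libraries, and both comparisons with 50 µM use the same 4 libraries at 50 µM. Bulk RNA cannot tell fewer cells of a type from less RNA of a gene per cell. Markers written down for macrophages, monocytes and neutrophils were detected in every group, and the adipocyte markers *Lep* and *Plin1* were at 0 in all 12 libraries, with the 5 adipocyte markers summing to at most 0.482 CPM in any library.

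Sequences next to the gene starts were looked up because both receptors recognize repeats of one short element. Letters searched were AGGTCA (the single element), AGGTCANAGGTCA (the direct repeat with 1 base between, DR1, that a PPAR with RXR binds) and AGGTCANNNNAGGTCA (the direct repeat with 4 bases between, DR4, that an LXR with RXR binds), on both strands, in the 250 bases before each RefSeq start on GRCm38.p6. An exact single element was in 14.0% of 32851 such windows, and with up to 2 mismatches DR1 was in 3.24% and DR4 in 2.57%. With up to 3 mismatches, a limit that was loosened after the windows of the 10 genes had been seen, the shares were 21.3% and 18.5%. A match is a string of letters, not a proven site. For 6 of the 10 genes 12 windows were searched, and those of *Fabp4*, *Fabp5*, *Lpl* and *Abcg1* were not analysed here. The stretches below, of 60 bases each, hold the matches of the genes for which transport out of the cell or storage is the known role, with the matched repeat in capitals. They lie on the minus strand of chromosome 4 at chr4:53159925-53159984 (*Abca1*, DR4 with 3 mismatches, first base 67 before the start) and chr4:86670247-86670306 (*Plin2*, DR1 with 2 mismatches, first base 225 before the start), and on the minus strand of chromosome 7 at chr7:19699189-19699248 (*Apoe*, DR1 with 3 mismatches, first base 28 before the start). No exon of GENCODE M21 overlaps them.
Abca1: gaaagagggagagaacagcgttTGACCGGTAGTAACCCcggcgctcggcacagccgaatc
Plin2: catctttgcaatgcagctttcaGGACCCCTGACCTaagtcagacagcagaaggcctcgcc
Apoe: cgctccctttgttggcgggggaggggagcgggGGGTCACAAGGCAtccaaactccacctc
The *Plin2* repeat includes an exact single element, and its window holds a second DR1 match with 3 mismatches that starts 161 bases before the start. *Pparg* had 2 exact single elements in its 3 windows, starting 28 and 9 bases before a start. The stretches of 60 bases that hold them overlapped exons of GENCODE M21 in 60 and 57 bases, and the genes of those exons were not checked. The windows of *Nr1h3* and *Aqp9* held no match even with 3 mismatches.

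Levels were first compared between genes per length, as CPM per kilobase of transcript. In vehicle, *Lpl* led at 370 CPM per kilobase, followed by *Fabp5* (126), *Plin2* (93.9), *Abcg1* (28.7), *Aqp9* (21.6), *Pparg* (18.4), *Apoe* (13.7), *Abca1* (11.8), *Fabp4* (1.54) and *Nr1h3* (0.985). Not every neighbour in this order was apart. The vehicle libraries of *Fabp5* and *Plin2* overlapped, as did those of *Aqp9* and *Pparg*, *Pparg* and *Apoe*, *Apoe* and *Abca1*, and *Fabp4* and *Nr1h3*. The 2 fatty acid binding proteins thus stood far from each other, with *Fabp5* at a mean of 87.2 times the level of *Fabp4* per length in vehicle (range 59.6 to 98.7 over 4 libraries) and 40.2 times at 50 µM (33.1 to 48.2).

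**Figure D1:**
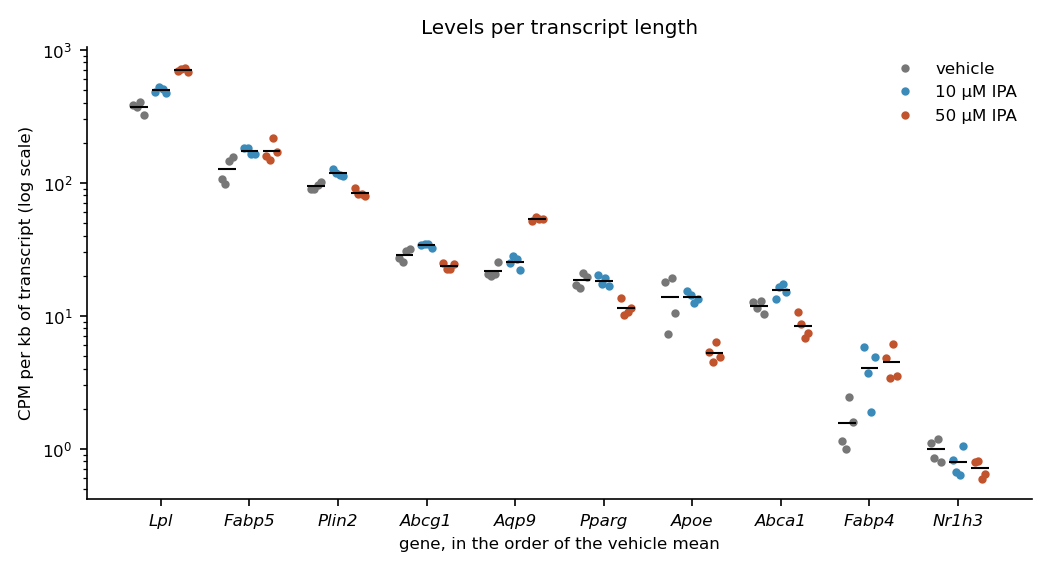
Level of each gene as CPM per kilobase of transcript, on a log axis, with genes in the order of the vehicle mean; points are the 12 libraries, coloured by group, and black lines are group means. *Lpl* stands above all others in each group, and *Fabp4* and *Nr1h3* lie at the low end.

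The receptors came first. *Pparg* (ENSMUSG00000000440, GRCm38 chr6:115360951-115490399, plus strand) was at 30.0, 28.7, 37.2 and 34.5 CPM in vehicle replicates 1 to 4, at 35.8, 30.8, 33.7 and 29.4 CPM with 10 µM IPA, and at 23.9, 18.0, 18.7 and 20.3 CPM with 50 µM IPA. Vehicle and 10 µM overlapped throughout, and all 4 libraries at 50 µM lay below every other library. The mean was 32.6 ± 3.95 CPM in vehicle, 32.4 ± 2.86 at 10 µM and 20.2 ± 2.64 at 50 µM. *Pparg* fell by 0.68 on the log2 scale at 50 µM (SE 0.11, edgeR adjusted p = 0.00165) and by as much against 10 µM (adjusted p = 0.000297), and the call held in all 8 fits that left out 1 library, in both comparisons. Against vehicle, the log2 difference at 10 µM was -0.01 with a 95% interval from -0.22 to 0.21.

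*Nr1h3*, which encodes LXR alpha (ENSMUSG00000002108, chr2:91184061-91202834, minus strand), was near the filter's minimum of 0.5 CPM, with 24 to 57 counts per library. Its mean was 1.93 ± 0.375 CPM in vehicle, 1.55 ± 0.373 at 10 µM and 1.39 ± 0.210 at 50 µM, with libraries of all 3 groups overlapping. None of its differences passed, and the log2 difference of 50 µM from vehicle was -0.46 with a 95% interval from -1.03 to 0.12 (adjusted p = 0.287).

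Gene by gene, the likeness to *Pparg* over the 12 libraries, as Pearson correlation of log2 CPM among the 12606 genes whose mean reached 1 CPM, was highest for *Neto2* (0.965), *F11r* (0.965), *Fcnb* (0.962), *Arhgef10l* (0.962) and *Zfp36l2* (0.960). The correlations are descriptions, because the libraries share groups. These 5 genes, like *Pparg*, had similar means in vehicle and at 10 µM and lower ones at 50 µM, *Fcnb* for instance at 68.5, 72.8 and 20.9 CPM. For the sparse *Nr1h3* the nearest were *Sass6* (0.883), *Cep68* (0.881), *Zfp111* (0.870), *Dgcr8* (0.864) and *Set* (0.856).

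**Figure D2:**
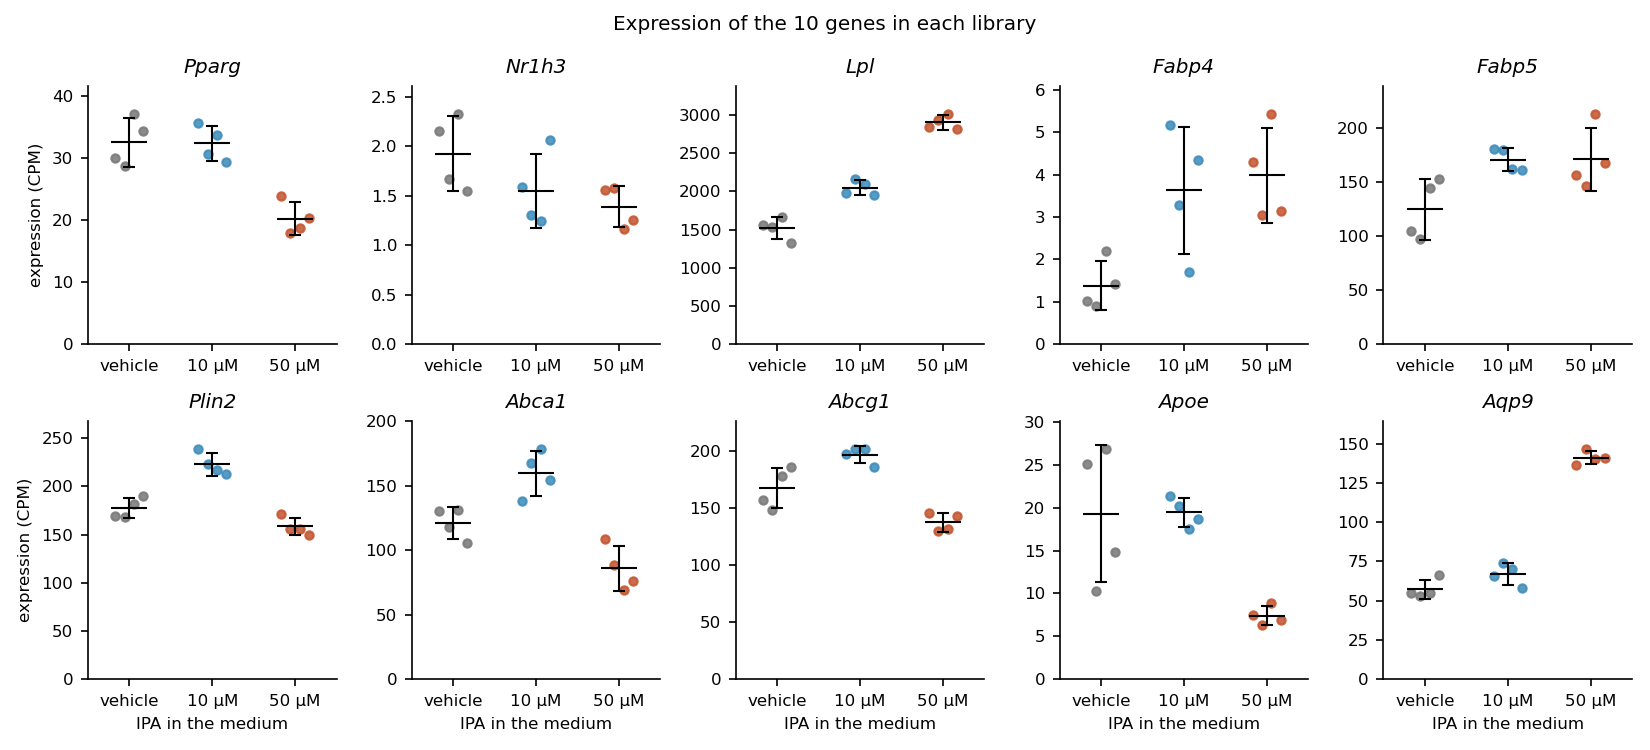
Expression in CPM of the 10 genes in each of the 12 libraries, by IPA dose, each panel with its own axis from 0; points are libraries, and the black bars are the mean ± SD of 4 libraries. *Pparg*, *Apoe*, *Abca1* and *Abcg1* are lowest at 50 µM, *Lpl* rises with each dose, and *Aqp9* is raised at 50 µM.

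Lipoprotein lipase, which frees fatty acids from circulating lipoproteins, had the highest level of all 10 genes and differed between each pair of groups. *Lpl* (ENSMUSG00000015568, chr8:68880491-68907448, plus strand) stood at 1564, 1536, 1662 and 1328 CPM in vehicle, at 1971, 2165, 2097 and 1956 CPM at 10 µM and at 2834, 2935, 3015 and 2815 CPM at 50 µM. No library of one group fell inside the range of another. The mean went from 1523 ± 140 to 2047 ± 101 and 2900 ± 93.0 CPM. The log2 difference was 0.43 (SE 0.07, adjusted p = 0.0375) at 10 µM against vehicle, 0.94 (SE 0.08, adjusted p = 6.59e-06) at 50 µM against vehicle and 0.51 (SE 0.06, adjusted p = 2.47e-05) between the doses. The call at 50 µM held without each library in turn. At 10 µM it held only without vehicle replicate 4 (adjusted p = 0.0143), and without each of the other 7 libraries the adjusted p was between 0.0513 and 0.182 with a log2 difference between 0.40 and 0.48.

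Both fatty acid binding proteins had higher means with IPA than with vehicle at each dose. *Fabp4* (ENSMUSG00000062515, chr3:10204088-10208576, minus strand), a PPARG target and a classical marker of adipocytes and macrophages, was at 1.02, 0.891, 2.19 and 1.43 CPM in vehicle, 5.18, 3.29, 1.69 and 4.35 CPM at 10 µM and 4.30, 3.04, 5.43 and 3.15 CPM at 50 µM, from 24 to 143 counts. The 50 µM libraries were all above those with vehicle, and 1 library at 10 µM lay within the vehicle range. *Fabp4* rose by 1.53 on the log2 scale at 50 µM (SE 0.31, adjusted p = 0.00509), and its difference at 10 µM was of a similar size but did not pass (log2 difference 1.40, SE 0.37, adjusted p = 0.187). The adipocyte markers above were at or near 0 in all groups.

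*Fabp5* (ENSMUSG00000027533, chr3:10012548-10016607, plus strand) carries fatty acids in macrophages and other cells. It was at 105, 96.9, 144 and 153 CPM in vehicle, 180, 179, 162 and 161 CPM at 10 µM and 157, 146, 213 and 167 CPM at 50 µM. Vehicle replicates 3 and 4 were higher than replicates 1 and 2, and at 10 µM all 4 libraries exceeded them. Neither difference from vehicle passed, with a log2 difference of 0.45 (SE 0.13, adjusted p = 0.245) at 10 µM and 0.46 (SE 0.15, adjusted p = 0.0614) at 50 µM. Without vehicle replicate 4, each passed (adjusted p = 0.0419 and 0.00825). The doses had the same mean to within their spread, with a log2 difference of 0.01 and a 95% interval from -0.20 to 0.21. Its transcript has 5 processed pseudogenes of at least 90% identity over 300 bases or more, of which *Gm6166* with 23 to 57 counts had the most reads, against 2610 to 4972 for *Fabp5*.

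*Plin2* (ENSMUSG00000028494, chr4:86648386-86670060, minus strand), the coat protein of lipid droplets, was at 169, 168, 182 and 190 CPM in vehicle, 239, 223, 217 and 212 CPM at 10 µM and 172, 156, 156 and 150 CPM at 50 µM. The 10 µM libraries lay above all others. At 10 µM the difference from vehicle was 0.33 on the log2 scale (SE 0.07, adjusted p = 0.0637), which passed without vehicle replicate 4 (adjusted p = 0.0193). *Plin2* then fell by 0.49 between 10 and 50 µM (SE 0.06, adjusted p = 9.47e-05), while the difference of 50 µM from vehicle was -0.16 (adjusted p = 0.184).

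Both cholesterol exporters were highest at 10 µM and lowest at 50 µM. *Abca1* (ENSMUSG00000015243, chr4:53030787-53159895, minus strand), which loads cholesterol onto lipid-poor apolipoproteins, was at 130, 118, 131 and 105 CPM in vehicle, 138, 167, 179 and 155 CPM at 10 µM and 109, 88.6, 69.3 and 76.3 CPM at 50 µM. *Abcg1* (ENSMUSG00000024030, chr17:31057675-31117988, plus strand), which passes cholesterol to mature high-density lipoprotein, was at 157, 148, 178 and 186 CPM, then 197, 202, 202 and 186 CPM, then 146, 130, 131 and 143 CPM. In both genes every library at 10 µM lay above every other library, for *Abcg1* by less than 1 CPM. At 50 µM *Abcg1* lay below vehicle in every library, by a narrow gap between 146 and 148 CPM, whereas *Abca1* replicate 1 at 50 µM, at 109 CPM, was higher than vehicle replicate 4.

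*Abca1* fell by 0.49 on the log2 scale at 50 µM against vehicle (SE 0.12, adjusted p = 0.0191) and by 0.89 against 10 µM (SE 0.12, adjusted p = 8.23e-05). *Abcg1* fell by 0.28 (SE 0.09, adjusted p = 0.0488) and by 0.51 (SE 0.06, adjusted p = 4.58e-05). The calls between the doses held without each library in turn. Against vehicle, *Abca1* did not pass without vehicle replicate 1 (adjusted p = 0.0558), vehicle replicate 3 (0.0670), 50 µM replicate 3 (0.0545) or 50 µM replicate 4 (0.0701), and *Abcg1* passed only without vehicle replicate 2 (0.0165), with adjusted p between 0.0521 and 0.152 without any other library. At 10 µM the log2 difference from vehicle was 0.40 for *Abca1* (SE 0.09, adjusted p = 0.122) and 0.23 for *Abcg1* (SE 0.08, adjusted p = 0.335).

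*Apoe* (ENSMUSG00000002985, chr7:19696109-19699188, minus strand), the apolipoprotein that macrophages secrete with cholesterol, was at 25.1, 10.3, 26.9 and 14.8 CPM in vehicle, 21.4, 20.2, 17.6 and 18.7 CPM at 10 µM and 7.52, 6.33, 8.93 and 6.88 CPM at 50 µM. Vehicle libraries were spread over a wide range, with replicates 1 and 3 above replicates 2 and 4, and all of them were above those at 50 µM. *Apoe* fell by 1.37 on the log2 scale at 50 µM against vehicle (SE 0.26, adjusted p = 0.00339) and by 1.39 against 10 µM (SE 0.12, adjusted p = 1.94e-06), in every fit that left out a library. The difference of 10 µM from vehicle was 0.01, with a 95% interval from -0.52 to 0.55.

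*Aqp9* (ENSMUSG00000032204, chr9:71110659-71168682, minus strand), an aquaglyceroporin, was at 54.7, 52.8, 54.7 and 66.6 CPM in vehicle, 65.9, 73.8, 70.1 and 58.0 CPM at 10 µM and 137, 147, 140 and 141 CPM at 50 µM. The group means were 57.2 ± 6.31, 66.9 ± 6.79 and 141 ± 4.34 CPM, and the 50 µM libraries were far above all others. *Aqp9* rose by 1.31 on the log2 scale against vehicle (SE 0.08, adjusted p = 1.47e-06) and by 1.08 against 10 µM (SE 0.07, adjusted p = 1.96e-07). At 10 µM its log2 difference from vehicle was 0.23 (adjusted p = 0.504). Genes on the opposite strand of its locus had at most 17 counts.

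**Figure D3:**
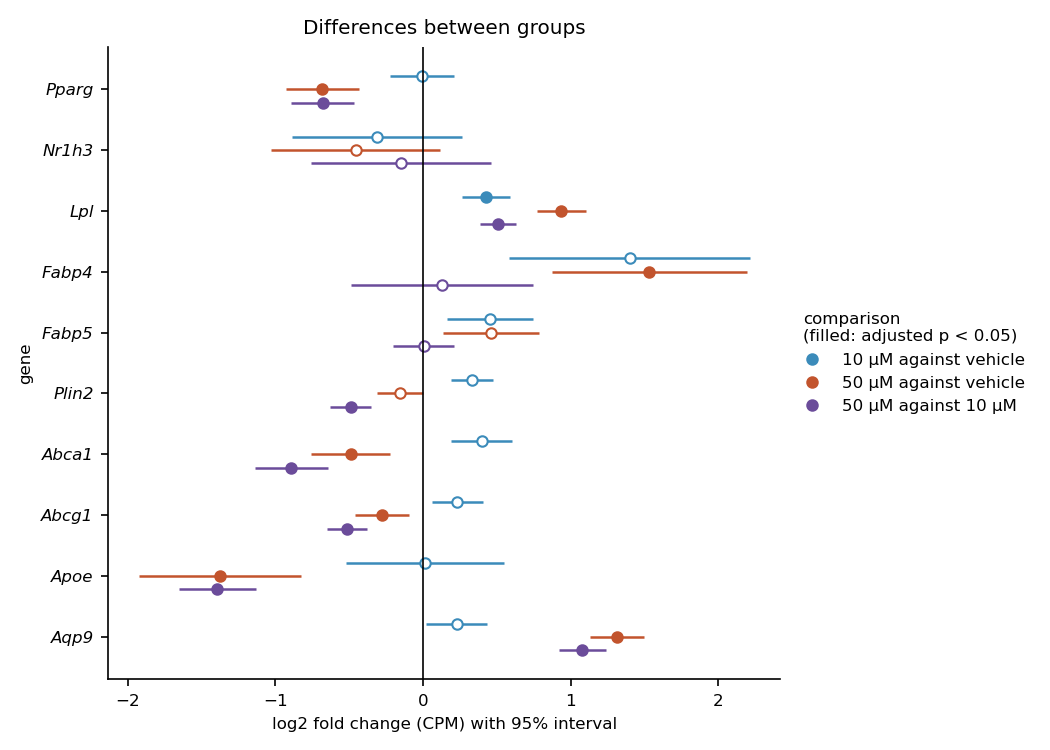
Log2 fold change of each gene in the 3 comparisons, with 95% intervals from the edgeR fit; filled points have an adjusted p under 0.05. At 50 µM, *Aqp9*, *Lpl* and *Fabp4* are higher than with vehicle and *Pparg*, *Apoe*, *Abca1* and *Abcg1* lower, and at 10 µM only *Lpl* is filled.

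Counted over the 10 genes, 1 was higher and none was lower at 10 µM than with vehicle (adjusted p under 0.05 by edgeR). Among all genes tested, 0.329% were higher and 0.0806% lower. An unadjusted p under 0.05 was found for 7 of the 10 genes and for 8.78% of all genes. DESeq2 called 4 of the 10 higher, *Lpl*, *Plin2*, *Abca1* and *Fabp4*, and 1.46% of the 13450 genes to which it gave an adjusted p. The 4 libraries of the groups did not overlap for 5 of the 10 genes, all higher at 10 µM, which was so for 6.13% of all genes in either direction. The median log2 difference was 0.28 for the 10 genes and -0.01 for all genes tested.

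At 50 µM against vehicle, 3 of the 10 genes were higher and 4 were lower, where 7.00% of all genes were higher and 6.50% lower. The groups did not overlap for 6 genes, 3 in each direction, against 20.0% of all genes. Between the doses, 2 genes were higher and 5 lower at 50 µM, with 7.52% of all genes higher and 7.85% lower, and the groups did not overlap for 7 genes, against 20.3%. The median log2 difference of the 10 genes was -0.22 in the first and -0.32 in the second of these comparisons, and that of all genes was 0.01 in each.

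Among the other genes of these pathways, 81 of 104 in 8 lists were tested. At 10 µM 1 was higher than with vehicle and none lower, where 0.329% and 0.0806% of all genes were. At 50 µM 10 were higher and 8 lower than with vehicle (7.00% and 6.50% of all genes), and 10 were higher and 15 lower than at 10 µM (7.52% and 7.85% of all genes). The gene that passed at 10 µM was *Cd36*, a receptor for fatty acids and oxidized lipoprotein, at 109 ± 14.5 CPM in vehicle, 174 ± 29.1 at 10 µM and 134 ± 19.6 at 50 µM. Its log2 difference at 10 µM was 0.68 (SE 0.12, adjusted p = 0.0450), and it passed in 2 of 8 fits without 1 library, with an adjusted p of up to 0.197. *Cd36* fell by 0.38 between 10 and 50 µM (adjusted p = 0.0346), and it passed there in 4 of 8 such fits.

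Of 11 receptor partners tested, none passed against vehicle at either dose. Of all genes, 0.329% were higher and 0.0806% lower at 10 µM, and 7.00% and 6.50% at 50 µM. *Nr1h2*, which encodes LXR beta, was at 79.3, 81.1 and 84.2 CPM in vehicle, 10 µM and 50 µM. *Rxra* and *Rxrb*, the shared RXR partners, were at 53.0, 58.4 and 46.3 CPM and at 54.6, 50.5 and 54.2 CPM. Between the doses 2 partners were higher and 1 was lower at 50 µM, beside 7.52% and 7.85% of all genes. *Rxra* fell by 0.33 on the log2 scale between 10 and 50 µM (adjusted p = 0.00651), while the coactivators *Ppargc1b* and *Ncoa3* rose by 0.48 and 0.30 (adjusted p = 0.0444 and 0.0132). *Ppargc1b* passed in 3 of the 8 fits without 1 library and *Ncoa3* in 7, with an adjusted p of up to 0.123 and 0.0536. The corepressor *Ncor1* had a log2 difference of 0.13 at 50 µM against vehicle and did not pass.

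Of 11 other PPAR targets tested, 2 were lower at 50 µM than with vehicle and none higher. *Angptl4*, a secreted inhibitor of LPL, fell by 0.69 (adjusted p = 0.00782) and *Cpt1a*, which brings fatty acids into mitochondria, by 0.51 (adjusted p = 0.00310). Both also fell between the doses, and *Hadha*, an enzyme of fatty acid oxidation, was level at 167, 167 and 161 CPM. Of 9 other LXR targets tested, 4 were higher and none was lower at 50 µM than with vehicle, beside 7.00% and 6.50% of all genes. *Scd1*, a fatty acid desaturase, rose by 1.77 on the log2 scale (SE 0.13, adjusted p = 3.78e-06), from 31.9 ± 6.85 to 108 ± 10.7 CPM. *Scd2* and *Smpdl3a* rose by 0.42 and 0.30 (adjusted p = 0.0277 and 0.0471), and these 2 passed in 4 and 2 of the 8 fits without 1 library. *Srebf1*, the lipogenic factor that LXR induces, was at 120, 126 and 118 CPM and did not pass. Between the doses, *Scd1* was higher by 1.41, and *Lpcat3* and *Pltp* fell by 0.19 and 0.32 (adjusted p = 0.0439 for each). *Lpcat3* passed in 1 and *Pltp* in 3 of the fits without 1 library.

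Of 15 lipid uptake genes, 3 were higher and 2 lower at 50 µM than with vehicle (7.00% and 6.50% of all genes). *Olr1*, a receptor for oxidized lipoprotein, rose by 0.64 (adjusted p = 0.000165), *Vldlr* rose by 0.68 (adjusted p = 0.0475, 2 of 8 fits without 1 library), and *Acsl1*, which activates long-chain fatty acids, fell by 0.39 (adjusted p = 0.00377). Between the doses 2 were higher and 4 lower (7.52% and 7.85% of all genes), the largest being those of *Slc27a3*, from 4.99 to 2.46 CPM, *Lrp1* (log2 difference -0.71) and *Slc27a1* (-0.54). The abundant scavenger receptor *Msr1* was at 330, 403 and 376 CPM and did not pass in any comparison.

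Of 16 lipid droplet genes, 3 were higher and 2 lower at 50 µM than with vehicle, beside the same shares of 7.00% and 6.50% of all genes. *Dgat2*, which makes triglyceride, fell by 0.92 (SE 0.08, adjusted p = 1.24e-05), from 115 ± 8.56 to 60.6 ± 3.95 CPM. *G0s2*, an inhibitor of triglyceride breakdown, rose by 0.83 (adjusted p = 0.00872), and *Soat2*, which esterifies cholesterol, rose by 0.98 from a level of 1.88 CPM (adjusted p = 0.0223, 5 of 8 fits without 1 library). *Abhd5*, the activator of triglyceride breakdown, fell by 0.50 between the doses (adjusted p = 0.000323). *Plin3*, a droplet coat protein like *Plin2*, was at 134, 138 and 129 CPM and did not pass.

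None of 9 sterol traffic genes passed against vehicle, and *Abca7* was higher by 0.39 between the doses (adjusted p = 0.0177, 6 of 8 fits without 1 library). Of the 4 tested genes for glycerol and water channels and glycerol enzymes, none passed against vehicle, and *Aqp3*, at 0.726 CPM at 10 µM, was higher by 1.17 at 50 µM than at 10 µM (adjusted p = 0.0475, 2 of 8 fits without 1 library, with 7.52% of all genes higher). *Gk* and *Gpd2*, which act on glycerol inside the cell and did not pass, had log2 differences of 0.11 and -0.06 at 50 µM against vehicle. Of 6 alveolar macrophage genes, *Ear1* and *Ear2* fell by 0.91 and 0.81 at 50 µM against vehicle (adjusted p = 0.000539 and 0.000933, with 6.50% of all genes lower), and *Itgax*, *Car4*, *Marco* and *Siglecf* did not pass. The list is not specific, as *Siglecf* was also written down as an eosinophil marker. The 4 eosinophil markers summed to 1007 to 1250 CPM in vehicle and 795 to 1071 CPM at 50 µM.

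**Figure D4:**
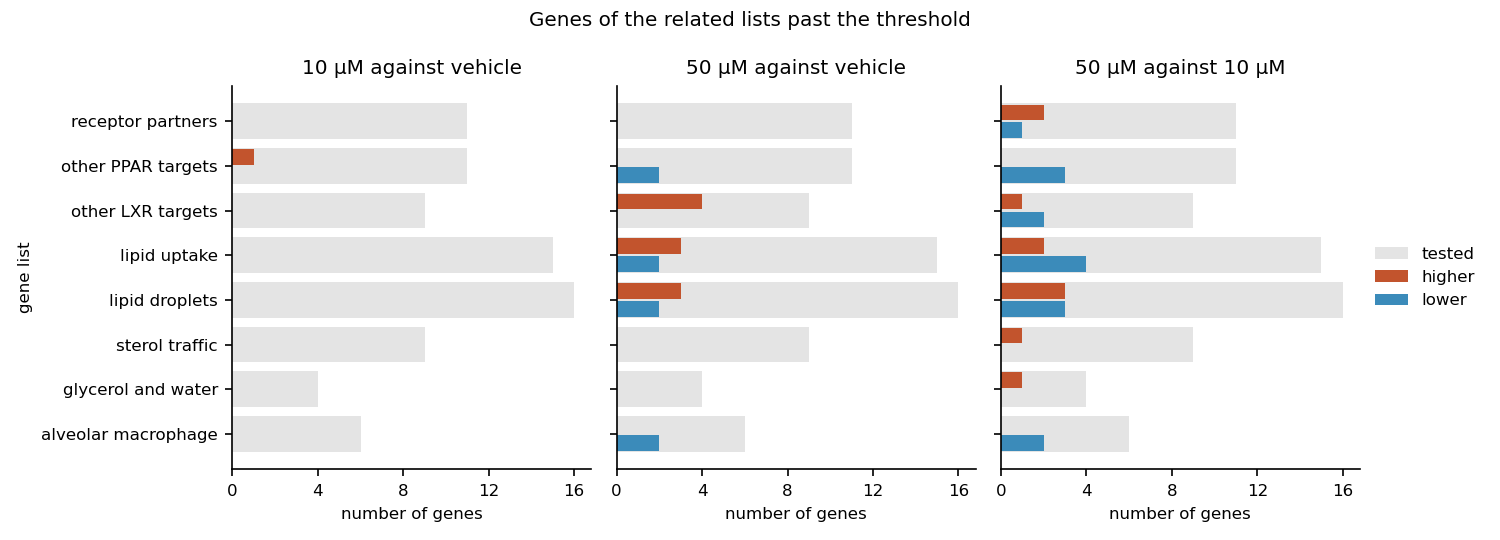
Number of genes tested (grey bars), higher (orange) and lower (blue) at an adjusted p under 0.05 in each of 8 related lists, for the 3 comparisons. At 10 µM against vehicle the only bar is the 1 PPAR target, *Cd36*, and between the doses calls fall in all 8 lists.

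Marker genes of the cells in culture moved alongside several of the 10 genes. The 9 macrophage markers summed to between 1726 and 1917 CPM in vehicle, 2061 and 2262 CPM at 10 µM and 1753 and 1874 CPM at 50 µM, and the 5 monocyte markers to between 2532 and 3227, 3671 and 4744, and 2212 and 2951 CPM. Like *Plin2*, *Abca1* and *Abcg1*, both sums were higher at 10 µM in every library than in any library of the other groups. *Fn1* made up the largest share of the monocyte sum, at 1292 to 1599 CPM in vehicle and 2047 to 2955 CPM at 10 µM. The *Ccr2* libraries at 10 µM also lay above those with vehicle, at 487 to 526 against 277 to 430 CPM, without passing the test (edgeR adjusted p = 0.0975), and *Ly6c2* overlapped, at 478 to 696 and 507 to 556 CPM. Of the macrophage markers 3 of 9 were higher at 10 µM than with vehicle and 6 of 9 lower at 50 µM than at 10 µM, and for the monocyte markers this was 1 of 5 (*Fn1*) and 5 of 5. Of all genes, 0.329% were higher in the first of these comparisons and 7.85% lower in the second. Their part in the differences of *Plin2*, *Abca1* and *Abcg1* was not tested.

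Other markers moved with the differences between 50 µM and vehicle, a comparison in which 7.00% of all genes were higher and 6.50% lower. Of the macrophage markers, 2 of 9 were higher and 2 lower. Of the monocyte markers, 3 of 5 were lower at 50 µM, and their sums overlapped those of vehicle. Of the neutrophil markers, 5 of 9 were lower, with overlapping sums of 15318 to 22106 CPM in vehicle and 10934 to 15511 CPM at 50 µM. *Ly6g* overlapped, at 34.5 to 63.5 and 46.1 to 63.0 CPM, as did *S100a8*, *S100a9* and *Retnlg*. All 50 µM libraries lay below vehicle for *Camp*, *Ltf*, *Elane*, *Mpo* and *Cxcr2*. The 5 stromal cell markers summed to between 6.75 and 11.8 CPM in vehicle, 5.72 and 10.2 CPM at 10 µM and 3.33 and 4.71 CPM at 50 µM. *Lepr* made up most of these sums, and *Cxcl12* was at 0 in every vehicle and 50 µM library. *Col1a2* and *Pdgfra* reached at most 0.293 and 0.210 CPM in any library. *Col1a1* overlapped, at 1.15 to 3.74 CPM in vehicle and 0.965 to 1.75 CPM at 50 µM. Only 2 of the 5 had enough reads to be tested, and 1 of them was lower at 50 µM than with vehicle. The stromal sum was lower at 50 µM in every library than in any library of the other groups. With the genes that rose, *Lpl*, *Aqp9* and *Fabp4*, all 4 B cell markers were higher at 50 µM, with sums of 14.9 to 20.9 CPM in vehicle and 30.7 to 47.5 CPM at 50 µM. Of 6 dendritic cell markers 3 were higher, with sums of 81.8 to 96.2 and 103 to 131 CPM. *Ccr7* made up most of these sums, at 60.5 to 75.5 CPM in vehicle and 78.0 to 103 CPM at 50 µM. *Zbtb46* and *Clec9a* were also higher in every 50 µM library, while *Flt3*, *Siglech* and *Xcr1* overlapped. The part of any of these marker groups in the differences was not tested.

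**Figure D5:**
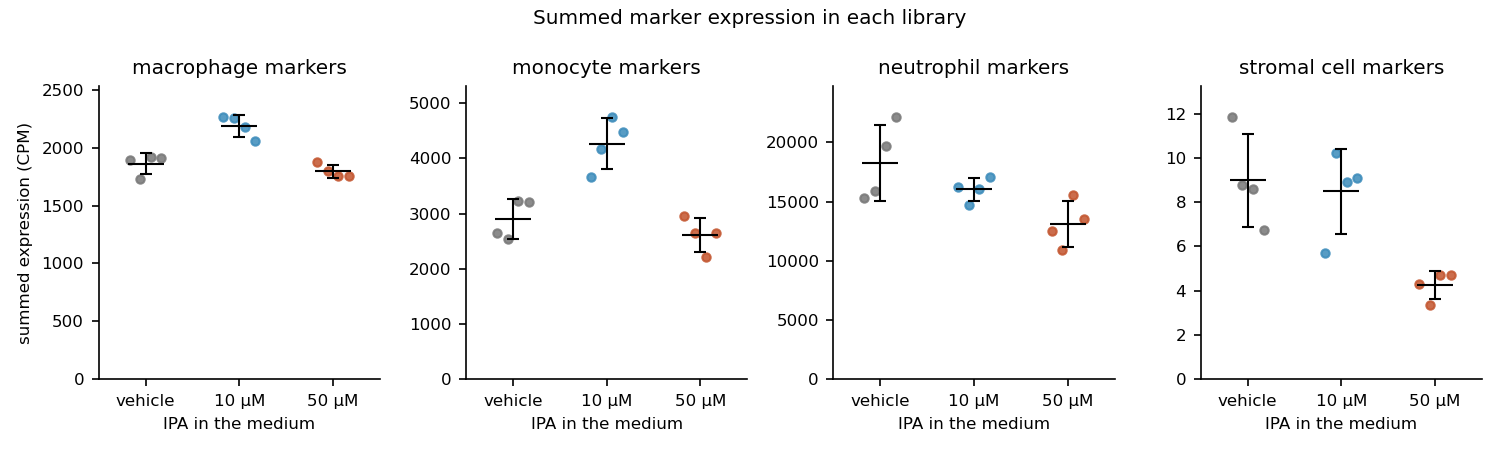
Summed expression in CPM of 9 macrophage, 5 monocyte, 9 neutrophil and 5 stromal cell markers in each of the 12 libraries, by IPA dose, with axes from 0; black bars are mean ± SD of 4 libraries. The macrophage and monocyte sums are highest at 10 µM, and the stromal sum is lowest at 50 µM.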

How the data were processed

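RNA-seq of 12 libraries was analysed, 4 per group, and the labels gave groups and replicate numbers. The title of 1 library at 10 µM is the same as replicate 2's, and its number was read from the library name (3). The authors used Atropos for trimming, HISAT2 2.2.1 for alignment to mm10 and featureCounts 2.0.1 for counting on Ensembl genes, and they deposited raw counts per gene. The strand setting of the counting is not given in the sources used here, so reads of overlapping genes may be mixed.

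A gene was kept if 2 or more of the 12 libraries exceeded 0.5 CPM (14894 of 54532). Differences were tested with edgeR 4.0.16 (TMM, glmQLFit, glmQLFTest) in R 4.3.3 on the 8 libraries of each pair of groups, with p-values adjusted over all tested genes (Benjamini-Hochberg) and called under 0.05. SEs are the size of the fitted difference divided by the root of F. The test was checked on simulated counts. Log2 CPM used a prior count of 2. Lengths are those of the longest principal transcript of GENCODE M21 on GRCm38, and promoters are from RefSeq. Totals of 20451312 to 28038612 reads limit precision for genes near the filter. No 2 libraries of a group were copies. Alternatives were DESeq2 1.42.0, limma-voom (limma 3.58.1), DESeq2 size factors, a minimum of 10 counts in every library, no filter, all 12 libraries in 1 fit, a replicate block, an offset for the trend on exon length, and leaving out each library. The 10 genes, the lists and the tests were chosen with earlier results of these data known. The text names all 10 genes, and from each list up to 3 that passed with the largest differences and up to 2 that did not with the highest level. Plots were drawn with matplotlib 3.10.9.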

Additional observations from a re-analysis of the deposited data

Results flagged for a closer look

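*Aqp9* in vehicle replicate 4, at 66.6 CPM, stood apart from the other 3 vehicle libraries, which lay between 52.8 and 54.7 CPM. The gap was 0.861 of the range of the group. It was 1 of 30 combinations of gene and group that were checked, and chance alone gives about 1 in 20. Without this library the difference of *Aqp9* between 50 µM and vehicle still passed.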

How the results depend on the processing

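Under the alternatives, 130 of 160 values of the 10 genes at 10 µM against vehicle, 141 of 160 at 50 µM against vehicle and 151 of 160 between the doses kept their direction and their side of the threshold. In the same order, 10, 0 and 9 values changed sign, all of differences that had not passed the test. At 10 µM, where 1 of the 10 genes, 61 of all genes and 1 gene of the related lists passed, DESeq2 gave 4, 250 and 3, no filter 4, 150 and 2, all 12 libraries in 1 fit 2, 118 and 2, and the exon length offset 3, 102 and 3. At least 10 counts in every library gave 2 of the 10 genes, and limma-voom gave 2 genes of the related lists. Leaving out 1 library gave 0 to 3 of the 10 genes, 4 (without 10 µM replicate 2) to 122 (without vehicle replicate 4) of all genes and 0 to 4 of the related lists, and at 50 µM against vehicle 1248 (without vehicle replicate 3) to 2689 (without vehicle replicate 4) of all genes against 2010. The cause was not tested. Pairing by replicate number was not apparent, with correlations of deviations from the group mean between -0.24 and 0.14 for the 12 pairs of the same number. For the 36 pairs of other numbers they were between -0.26 and 0.27. With 4 libraries per group, such correlations cannot show whether the cultures were paired. With a replicate block, 0 of the 10 genes, 3 of all genes and 0 genes of the related lists passed at 10 µM (*Lpl* adjusted p = 0.226), *Abcg1* had 0.0542 and *Fabp5* 0.00851 at 50 µM against vehicle.

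Differences near 0 changed sign. For *Pparg* at 10 µM against vehicle limma-voom gave 0.0082 and leaving out 1 library -0.0633 to 0.0656. For *Apoe* there, the length offset gave -0.0115 and leaving out 1 library -0.20 to 0.22. Between the doses, *Fabp5* was at -0.0100 with limma-voom, -0.0074 with the replicate block and -0.0023 with the length offset, and leaving out 1 library gave -0.12 to 0.0742, *Fabp4* -0.11 to 0.37 and *Nr1h3* -0.24 to 0.0134. *Fabp5* passed at 50 µM against vehicle in 6 of 16 alternatives. Counts were lowest for *Nr1h3* and *Fabp4*, from 24 to 143 per library.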
